A study of Mus musculus with 23 samples.

Results

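Transcript abundance in the nucleus accumbens was described from control mice alone, which had received a virus with a scrambled hairpin. The labels title 11 of the 23 arrays of the series as controls, 5 from females and 6 from males, with 1 array per mouse. All 11 mice were C57BL/6, bought as C57BL/6J, about 15 weeks old, and had been injected in the nucleus accumbens with an adeno-associated virus about 5 weeks before the region was micropunched. The genotype label reads control for all of them, and the arrays of mice given the hairpin against Nr1d1 were not used. The labels give postpartum day 7 for collection, also for males, and what it means for the females was not used. Genes were ranked by log2 intensity within each sex, with rank 1 the strongest of 22180 named genes and tied genes sharing a mean rank.

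The nucleus accumbens is the ventral part of the striatum, where most neurons are GABAergic medium spiny neurons that receive dopamine from the midbrain and glutamate from the cortex, hippocampus, thalamus and amygdala. Cells of the direct pathway carry the D1 receptor, which raises cyclic AMP through the G protein Golf and adenylyl cyclase type 5, and make substance P and dynorphin. Cells of the indirect pathway carry the D2 receptor, which lowers cyclic AMP, and make enkephalin. Phosphodiesterases and RGS proteins end these signals.

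The array medians were 6.11 to 6.14 in female and 5.85 to 5.88 in male controls on the log2 scale, so the sets look separately normalized, and a difference of sex cannot be told apart from one of processing run. Ranks were therefore kept within a set, and no level was set across sets. The 2 rankings had a Spearman correlation of 0.994 across the 22180 genes, which are not independent. Probe sets differ in how strongly they respond, so a rank orders signals and does not count molecules. In a punch of mixed cells, fewer cells of a type and less RNA per cell cannot be told apart.

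The strongest signals were led by genes of the mitochondrial genome and the small nuclear RNA Rn7sk. Of the 100 strongest genes of each set, 91 were in both, and 90 to 91 of these stayed when 1 array was left out. ND4, a subunit of respiratory complex I encoded by mitochondrial DNA, ranked 1 in both sets, at 13.90 ± 0.07 (SD, n = 5) in females and 13.99 ± 0.03 (SD, n = 6) in males. Rn7sk, the RNA that holds back the elongation factor P-TEFb, ranked 2 in both, at 13.81 ± 0.07 (SD, n = 5) and 13.84 ± 0.02 (SD, n = 6). The 91 shared genes held 9 of the 10 measured mitochondrial genes, and the tenth, ND6, ranked 768.5 and 576. ND6 is the one protein gene on the light strand of mitochondrial DNA. Nuclear copies of mitochondrial genes and processed copies of Gapdh, Eef1a1 and ribosomal protein genes can share probes with their parent genes, so single ranks of these are uncertain.

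Among nuclear protein genes, Eif4a1, an RNA helicase of translation initiation, ranked 6 in females and 10 in males. Snap25, a SNARE protein of synaptic vesicle fusion, ranked 12 in both sets, with intensities of 13.16, 13.22, 13.32, 13.30 and 13.28 on the female arrays and 13.26, 13.25, 13.26, 13.22, 13.28 and 13.24 on the male arrays. No array stood apart for it. Ywhaz and Gapdh, both used as reference genes, ranked 13 and 15 in females and 15 and 16 in males. The tetraspanin Cd81, the neuronal membrane glycoprotein Gpm6a, the sodium pump subunit Atp1b1 and the calmodulin-binding peptide Pcp4 completed the protein genes among the 20 strongest. Their ranks were 16, 17, 19 and 18 in females and 13.5, 17, 18.5 and 21 in males. Gm26504, a gene model, ranked 21.5 and 18.5. Ribosomal protein genes were spread widely, with 4 of 63 in the shared set and a median rank of 7631 in females and 6763 in males. The small nucleolar RNA genes likewise had 1 of 73 there, Snora33. Only probe sets with 1 symbol were ranked, so both families are described by those probe sets alone. The array also carried many signals without a name: of the 100 strongest of all 41345 probe sets, 39 had 1 gene symbol, 20 had several and 41 had none here.

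**Figure D1:**
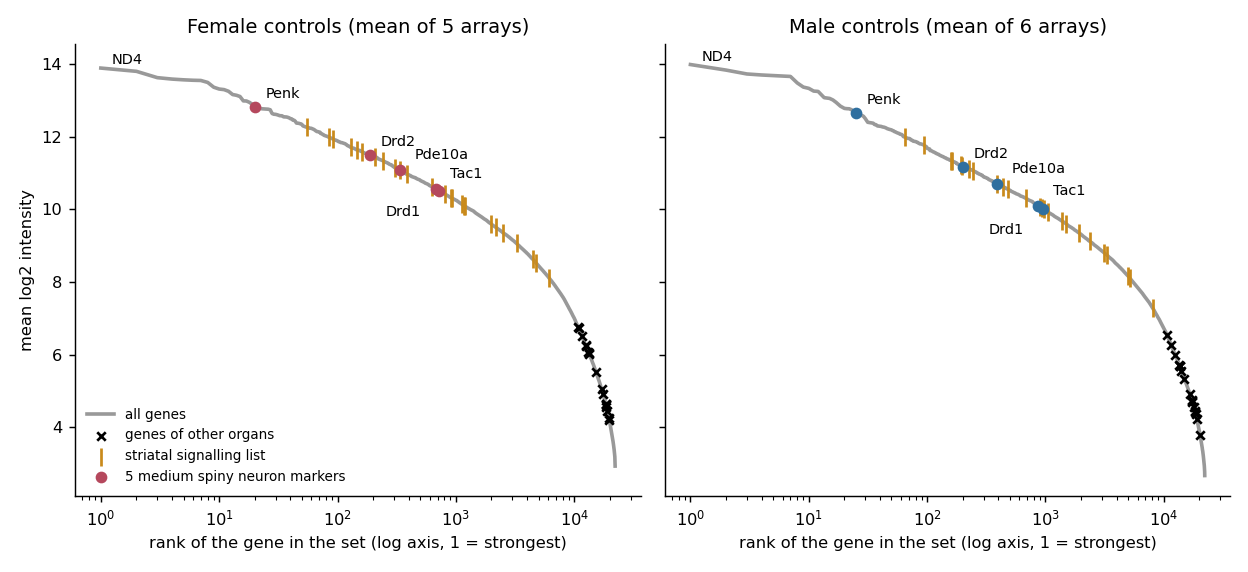
Mean log2 intensity (vertical axis) against the rank of each of 22180 genes in its set (horizontal log axis), in 5 female and 6 male controls, with the striatal signalling list as ticks, genes of other organs as crosses and 5 markers as labelled points. Penk lies at ranks 20 and 25, the other 4 markers lie within the first 1000 ranks, and the crosses start past rank 10000 in both sets.

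A microRNA gene also stood among the strongest signals. Mir5099 ranked 11 in females, at 13.30 ± 0.05 (SD, n = 5), and 13.5 in males, at 13.08 ± 0.13 (SD, n = 6), while the 472 genes with microRNA names had median ranks of 15870 and 15675, with 3 and 4 of them in the first 1000. Which RNA of the locus gave this signal was not tested. The hairpin, from RefSeq at chr12:36816205-36816278 on the plus strand of GRCm38.p6, is shown because its probe set gave the strongest signal of any microRNA gene.
Mir5099: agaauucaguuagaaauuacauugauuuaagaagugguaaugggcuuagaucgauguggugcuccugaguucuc
Mir453 was the next with a sequence in the table, at ranks 443 and 524, and its mature form is given with the seed, bases 2 to 8, in capitals.
miR-453: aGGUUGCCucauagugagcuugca
Mir449b lay between them at ranks 49 and 48.

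The tissue label was checked against 5 markers of medium spiny neurons, and all 5 were in the first 1000 ranks of both sets, which hold 4.52% of all genes in females and 4.51% in males. Penk, the enkephalin precursor, had intensities of 12.90, 12.84, 12.74, 12.80 and 12.78 on the female arrays and 12.41, 12.66, 12.76, 12.73, 12.79 and 12.60 on the male arrays. Drd2, the D2 dopamine receptor, gave 11.71, 11.49, 11.42, 11.40 and 11.45 in females and 10.82, 11.35, 11.52, 11.10, 11.46 and 10.80 in males. Male controls 1 and 6 were the lowest for Penk and Drd2, and the other male arrays lay close together for Penk. Pde10a, the phosphodiesterase that medium spiny neurons use to degrade cyclic nucleotides, gave 11.15, 11.17, 11.06, 11.10 and 10.93 in females and 10.49, 10.91, 10.80, 10.79, 10.83 and 10.41 in males. Here too male controls 6 and 1 were the lowest of their set.

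The direct pathway markers ranked after these. Tac1, the substance P precursor, gave 10.58, 10.70, 10.46, 10.56 and 10.52 in females and 9.96, 10.10, 10.15, 10.20, 10.12 and 9.99 in males. Drd1, the D1 dopamine receptor, gave 10.72, 10.54, 10.39, 10.56 and 10.38 in females and 9.82, 9.98, 10.06, 10.23, 10.07 and 9.95 in males. Both were lowest in male controls 1 and 6 and highest in male control 4 within the male set. On every one of the 11 arrays Penk gave a stronger signal than Drd2, Drd2 than Pde10a, and Pde10a than Tac1. Tac1 and Drd1 did not separate: Tac1 was the stronger on 8 arrays, and on 1 they were equal. The set ranks in females and males were 20 and 25 for Penk, 188.5 and 201.5 for Drd2, 335.5 and 390.5 for Pde10a, 673.5 and 872 for Tac1, and 725 and 949 for Drd1.

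**Figure D2:**
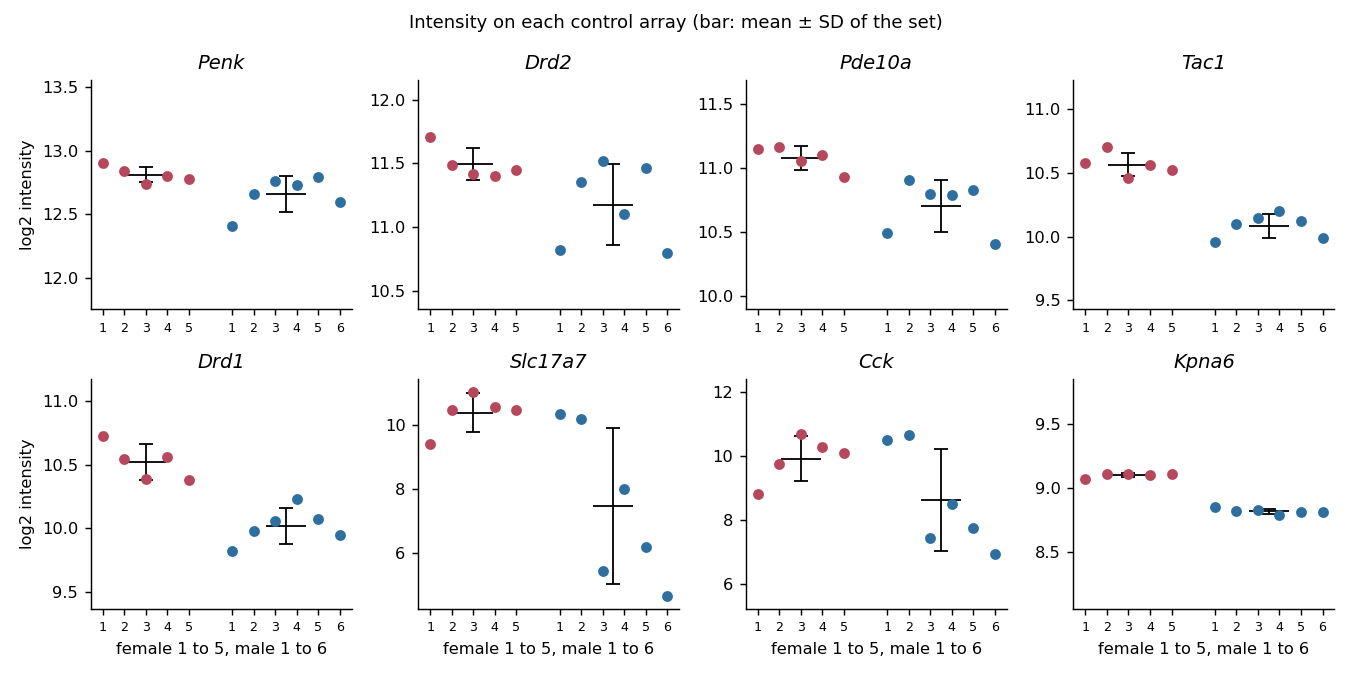
Log2 intensity (vertical axis) of 8 genes on each control array (horizontal axis, 5 female in red and 6 male in blue), with the mean ± SD of each set as a bar; the panels of Slc17a7 and Cck have a wider axis than the others. Male controls 1 and 6 are low for the 5 striatal markers, Slc17a7 and Cck fall from above 10 in male controls 1 and 2 to 4.64 and 6.94 in male control 6, and Kpna6 stays within 0.06 in each set.

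Dopamine receptors covered most of the range of the array. Drd3, a D2-type receptor concentrated in the ventral striatum, ranked 3640 and 3491, the D1-type Drd5 8306 and 8986, and the D2-type Drd4 14466 and 13393. Drd4 lay within the ranks of genes of other organs, which stand for transcripts that the tissue should lack: the strongest of these 18 genes, Apoa2, ranked 10784 in females and 10603 in males, and their medians were 16211 and 16970. For comparison, 48.6% of all genes in females and 47.8% in males were stronger than the strongest of them. The other markers of the direct pathway followed Tac1 and Drd1 at a distance, with the dynorphin precursor Pdyn at 1750 and 1927, Slc35d3 at 4234 and 4691, the transcription factor Isl1 at 5014 and 4886, the M4 muscarinic receptor Chrm4 at 6928 and 7476, and the transcription factor Ebf1 at 8202 and 7901. In the indirect pathway list the orphan receptors Gpr52 and Gpr6 ranked 379 and 2652 in females and 483 and 2512 in males, and the transcription factor Sp9 ranked 10954 and 11231. The adenosine receptor gene Adora2a and the DARPP-32 gene Ppp1r1b had no probe set with a single symbol and are not ranked.

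The striatal signalling genes stood high in both sets. Of 29 genes listed, 25 were measured, and their median rank was 811.5 in females and 896.5 in males, against 11091 over all genes. Such ranks were not particular to this list: the 14 reference genes had medians of 834.75 and 863.5, and the 12 GABA receptor genes 732 and 701.5. In each set 15 of the 25 were in the first 1000 ranks, 24 were in the strongest 25%, and all 25 were stronger than every gene of other organs. The median over the list ranged from 692.5 to 926 between female arrays and from 761 to 1034 between male arrays.

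The list was led by Gng7. Gng7, the gamma subunit that pairs with Golf in the striatum, had intensities of 12.41, 12.29, 12.18, 12.31 and 12.14 on the female arrays and 11.76, 12.09, 12.18, 11.96, 12.14 and 11.82 on the male arrays, at ranks 55 and 65. Gnal, the alpha subunit of Golf, gave 11.88 to 12.01 in females and 11.11, 11.42, 11.53, 11.28, 11.58 and 11.16 in males, at ranks 91 and 159. Male controls 1 and 6 were again the lowest for both subunits. Gnb5, the beta subunit that binds RGS9, ranked 1982 and 1937.

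Of the enzymes of cyclic AMP, Adcy5, the main adenylyl cyclase of the striatum, gave 11.50, 11.46, 11.15, 11.40 and 11.23 in females and 10.83, 11.24, 11.13, 11.22, 11.18 and 10.78 in males, at ranks 241 and 246. It was lowest in male controls 6 and 1 and in female controls 3 and 5. The phosphodiesterases Pde7b, Pde2a and Pde1b all ranked above Pde10a, at 84, 145.5 and 161 in females and 94, 161 and 193 in males. The catalytic subunits of protein kinase A, Prkacb and Prkaca, ranked 209 and 384 in females and 227 and 480 in males. Its regulatory subunits Prkar2b and Prkar1b ranked 1134 and 3259 in females and 932 and 2365 in males.

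Rgs9, which speeds the shut-off of G proteins in medium spiny neurons, gave 11.78, 11.76, 11.65, 11.74 and 11.62 in females and 10.99, 11.38, 11.27, 11.26, 11.31 and 10.91 in males, at ranks 131 and 199. The other RGS genes were weaker, with Rgs4 at 628 and 680, Rgs2 at 1201 and 1057, and Rgs8 at 4797 and 4972. Ptpn5, the striatum-enriched phosphatase STEP, ranked 907 and 971, and Strn, the calmodulin-binding scaffold striatin, 308 and 439. Rap1gap ranked 811.5 and 896.5, the small G protein Rasd2 923 and 1368, and the exchange factor Rasgrp2 4468 and 5173. The phosphoproteins Arpp21, Ppp1r1a and Arpp19 ranked 1183, 2176 and 2489 in females and 1496, 3129 and 3289 in males. The weakest member was the calcium sensor Hpca, at 6173 and 8041. Of the 24 pairs of neighbours in this order, 3 did not overlap in array ranks in either set: Gnb5 and Ppp1r1a, Arpp19 and Rasgrp2, and Rgs8 and Hpca. The order of the other neighbours was within the spread between mice in at least 1 set.

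The same arrays were low for much of this list. Male control 6 held the lowest value of its set for 12 of the 25 genes and male control 1 for 10, and in females control 3 did so for 10 and control 5 for 9. How often these arrays held the lowest value over all genes was not counted. With male controls 1 and 6 left out together, a choice made after seeing the data, the male median rank of the list was 857.

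**Figure D3:**
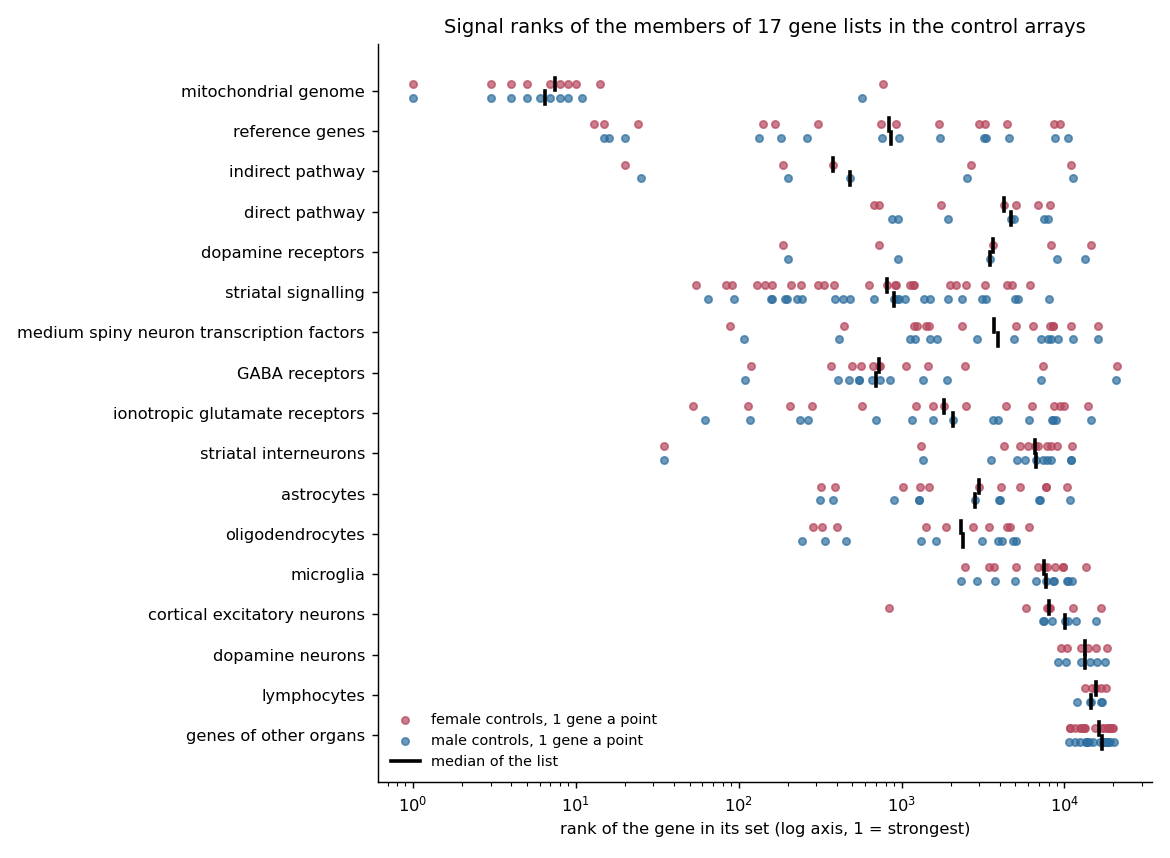
Rank of every measured member (horizontal log axis, 1 the strongest of 22180) of 17 gene lists, with female controls in red, male controls in blue and the list median as a black bar. The mitochondrial list has medians of 7.5 and 6.5, striatal signalling 811.5 and 896.5, and the genes of other organs 16211 and 16970.

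The lists of GABA and ionotropic glutamate receptors had stronger medians than those of metabotropic glutamate, muscarinic and hormone receptors. The 12 measured GABA receptor genes had median ranks of 732 in females and 701.5 in males, led by the GABA-B subunit Gabbr1 at 119 and 109, Gabra4 at 371.5 and 474.5, and Gabbr2 at 499.5 and 409. Gabra6, the alpha-6 subunit known from cerebellar granule cells, was the weakest at 21101 and 20868. The 15 ionotropic glutamate receptor genes had medians of 1813 and 2084, led by the AMPA receptor subunits Gria2 at 52.5 and 62, Gria1 at 113.5 and 117, and Gria3 at 208 and 237.5. Of 7 metabotropic glutamate receptor genes, Grm3 ranked 443 and 448.5, Grm5 581.5 and 572, and Grm7 1871 and 1843, and the list medians were 6741 and 7733. Chrm1, the M1 muscarinic receptor, ranked 1475 and 1993, and the cannabinoid receptor Cnr1 5101 and 5608.

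The opioid receptors ranked far below Penk and Pdyn. The nociceptin receptor Oprl1 stood at 6101 and 5526, and the list ended with Pnoc at 12301 and 11643 and Pomc at 15680 and 16412. Sst, the somatostatin precursor of a class of interneurons, ranked 35 in both sets, with 12.47, 12.39, 12.65, 12.66 and 12.59 on the female arrays and 12.40, 12.50, 12.46, 12.27, 12.55 and 12.08 on the male arrays. Male control 6 was the lowest. Npy, which the same interneurons make, ranked 1309 and 1352, and the choline transporter Slc5a7 of cholinergic interneurons 4248 and 3552. The interneuron list as a whole had medians of 6585 and 6710, with Vip and Pvalb last at 8978 and 11088 in females and 11034 and 10901 in males. The hormone and social peptide receptors had medians of 11032 and 10974, close to the 11091 of all genes, with the glucocorticoid receptor Nr3c1 first at 2184 and 2242 and the vasopressin receptor Avpr1b last at 16916 and 16079.

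Transcription factors of medium spiny neurons were led by Meis2 at 89 and 107.5, Foxp1 at 443 and 411.5 and Dlx5 at 1195 and 1122, with Ikzf1 last at 15972 and 16085. The medians over these 14 genes were 3690 and 3898. All 17 measured clock genes were stronger than every gene of other organs, with medians of 2290 and 2915. Clock, Npas2, which dimerise with Bmal1, and Dbp, a clock output factor, ranked 333, 546.5 and 711.5 in females and 300, 572 and 846.5 in males, and by the mean rank of both sets Ciart and Cry1 were last, at 5910 and 7505 in females and 6651 and 7368 in males.

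The glial lists had weaker median ranks than the striatal signalling list. Astrocyte genes had medians of 2978 and 2842, with the transporters Slc4a4 and Slc1a3 and the gap junction protein Gja1 at 322, 392.5 and 1025 in females and 314, 382 and 901 in males. Oligodendrocyte genes had medians of 2315 and 2369, with the myelin proteins Mobp, Mal and Cldn11 at 324.5, 284.5 and 403.5 in females and 243.5, 340.5 and 456 in males. Microglial genes ranked lower, with medians of 7460 and 7763, led by C1qb at 2444 and 2325. Genes of dopamine neurons, whose cell bodies lie in the midbrain, had medians of 13300 and 13470, with Th, the enzyme of dopamine synthesis, at 9531 and 9161 and the dopamine transporter Slc6a3 at 12561 and 12614. Lymphocyte genes had medians of 15639 and 14644, and none was stronger than the strongest gene of other organs.

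Cortical excitatory genes differed strongly between mice. Slc17a7, the vesicular glutamate transporter of cortical neurons, gave 9.40, 10.46, 11.05, 10.57 and 10.48 on the female arrays and 10.34, 10.18, 5.43, 8.01, 6.17 and 4.64 on the male arrays. Its array ranks ran from 355 to 2403 in females and from 648.5 to 17520 in males, so that in male controls 1 and 2 it lay among the strongest genes and in male controls 3, 5 and 6 among genes of other organs. Neurod6, a transcription factor of these neurons, gave 7.02, 7.41, 8.41, 7.69 and 7.64 in females and 9.13, 8.41, 5.63, 5.98, 5.57 and 5.51 in males. The median rank of the 7 cortical genes was 4319 and 5637 in male controls 1 and 2 and 11456 to 14115 in the other 4, and 6252 to 9911 in females. Of the arrays low in striatal signalling genes, male control 1 and female control 3 had the strongest cortical median rank of their set. Female control 5 had the next strongest among females, 7820.5. Male control 6 was low in cortical genes, at 14069.5. How the 2 lists relate across arrays was not tested. The part of cortical tissue in the other ranks was not tested.

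The least variable transcripts depended on the set. Spread was taken as the SD of log2 intensity between mice, among the 5331 genes in the strongest 25% of both sets. Their median SD was 0.065 in females and 0.110 in males, against 0.093 and 0.126 over all genes. Only 3 genes were among the 100 lowest SDs of both sets, where 100 is 1.88% of the genes ranked. Unrelated lists of 100 would share about that percentage of their members, so a count of 3 is near what unrelated lists give. The count was 1 without female control 2, 3 or 5 or male control 2 or 3, 0 without female control 4, and 5 without male control 4. The SDs of the 2 sets had a Spearman correlation of 0.318 across these genes, far below that of the signals. At the other end 52 genes were among the 100 highest SDs of both sets.

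The 3 shared genes were Kpna6, Huwe1 and Birc6. Kpna6, an importin that carries proteins into the nucleus, gave 9.07, 9.11, 9.11, 9.10 and 9.11 in females and 8.85, 8.82, 8.83, 8.79, 8.81 and 8.81 in males. Huwe1, a ubiquitin ligase, gave 10.90, 10.87, 10.87, 10.90 and 10.86 in females and 10.54, 10.60, 10.59, 10.62, 10.56 and 10.59 in males. Birc6, a large ubiquitin-conjugating inhibitor of apoptosis, had an SD of 0.020 in females and 0.028 in males. These spreads are near the step of 0.01 to which the values were rounded.

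By the mean of the SD ranks of both sets, Bptf, Psmb7, Cask, Ankrd12, Abca2, Vdac1, Exoc6b, Ap3d1, Slc25a5, Smarcc2, Tbck and Ralgapa1 were also among the 15 steadiest. They include the chromatin remodelling subunits Bptf and Smarcc2, the proteasome subunit Psmb7, the synaptic scaffold Cask, the mitochondrial channel Vdac1, the mitochondrial carrier Slc25a5, and Exoc6b and Ap3d1 of vesicle traffic. Their signal ranks ran from 177 for Vdac1 to 2894 for Psmb7 in females. None of the 14 reference genes was among the 3 genes shared by both sets, and neither was a member of any other list. With only 3 shared among 5331 genes, this says little about the reference genes. The median SD of the reference list was 0.070 in females and 0.090 in males, against 0.065 and 0.110 over the 5331 genes. The mitochondrial genes had medians of 0.054 and 0.037, and the striatal signalling genes 0.074 in females and 0.176 in males.

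**Figure D4:**
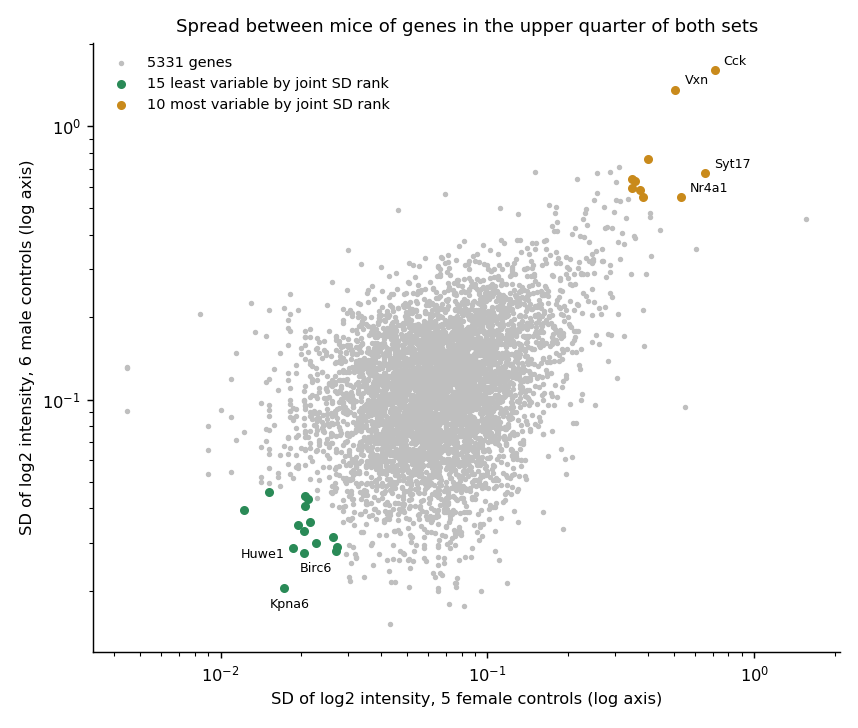
SD of log2 intensity between the 6 male controls (vertical log axis) against that between the 5 female controls (horizontal log axis) for 5331 genes in the strongest 25% of both sets, with the 15 lowest and the 10 highest by joint SD rank in colour. Kpna6, Huwe1 and Birc6 lie at the lower left, and Cck and Vxn lie apart at the upper right.

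The most variable of the 5331 genes were Cck, Vxn, Syt17, Mical2, Nr4a1, Kcnh7, AW551984, St8sia5, Cnih3 and Arc. Cck, the cholecystokinin precursor made by many cortical neurons, gave 8.81, 9.74, 10.69, 10.27 and 10.10 in females and 10.51, 10.66, 7.42, 8.51, 7.73 and 6.94 in males, an SD of 0.71 and 1.60. Vxn gave 9.09, 9.41, 10.44, 9.82 and 9.59 in females and 10.25, 10.09, 7.38, 8.46, 7.30 and 7.52 in males. Nr4a1 and Arc, genes that neuronal activity induces, had SDs of 0.53 and 0.35 in females and 0.55 and 0.60 in males. Of these 10 genes, 9 were highest in female control 3 and in male control 1 or 2, and lowest in female control 1, as Slc17a7 was. AW551984 ran the other way, with 9.72, 9.50, 8.86, 9.45 and 9.70 in females and 8.88, 8.47, 9.78, 9.67, 9.79 and 10.16 in males. Of the 52 genes shared by the most variable 100, 37 were highest in female control 3 and in male control 1 or 2, as were 10.7% of the 5331 genes.

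The DNA before the genes, which the ranking did not use, differed with signal. In RefSeq windows of GRCm38.p6 from 250 bases before to 50 after a gene's start, found for 16990 of the 22180 genes, the median number of CG pairs was 23 for genes in the strongest 25% of both sets, 20 in the second, 8 in the third and 2 in the weakest 25%. TATAAA, searched on both strands, was in 5.69% of the windows of the strongest 25%, 7.26% of the second, 13.0% of the third and 26.6% of the weakest. It was in 12.9% of the windows of all measured genes and in 14.2% of all 27025 windows. For the 100 steadiest genes by joint SD rank, 83 of which had a window, the median was 24 CG pairs and TATAAA was in 2.41%. For the 57 windows of the 91 strongest shared genes it was 23 CG pairs and 8.77%, and the 23 windows of striatal signalling genes likewise had a median of 23. TATAAA was in 3 of these 23 striatal windows, or 13.0%, against 12.9% over all measured genes and 5.69% in the strongest 25%. Of the 25 striatal genes, 24 lie in the strongest 25% of each set. A count of 3 windows is too small to set against either share. The 14 windows of genes of other organs had a median of 3, and TATAAA was in 42.9% of them.

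Motifs of the cyclic AMP response element type were searched because dopamine receptors act through cyclic AMP. TGACGTCA, the full palindromic element, was in 1.88% of all windows, 2.45% of those of measured genes and 3.61% of those of the strongest 25%. TGCGTCA, searched on both strands and without overlap with it, was in 2.19%, 2.73% and 4.22%. Of the 57 windows of the strongest genes, 1 held TGACGTCA, that of Sst, and 5 held TGCGTCA, those of Dad1, Malat1, Ptprn, Rab7 and Srrm2. Among the 23 windows of striatal signalling genes TGCGTCA was in 1, that of Rgs4, and TGACGTCA in none. None of the 5 windows of dopamine receptors held TATAAA, TGACGTCA or TGCGTCA. The 250 bases before the start are shown for 4 genes chosen after the search, 3 of them with a match: Sst among the strongest, Tac1 of the direct pathway, Cck, the most variable, and Huwe1, one of the steadiest. The windows of Drd1, Drd2, Pde10a, Birc6 and Gng7, read in the same way, held none of the 3 motifs. For each gene 1 window was searched, although 2 were listed for Drd1, Pde10a and Gng7. Capitals mark matches of the 3 motifs, and each is written 5′ to 3′ on the gene's strand.
Sst (chr16:23890845-23891094, minus): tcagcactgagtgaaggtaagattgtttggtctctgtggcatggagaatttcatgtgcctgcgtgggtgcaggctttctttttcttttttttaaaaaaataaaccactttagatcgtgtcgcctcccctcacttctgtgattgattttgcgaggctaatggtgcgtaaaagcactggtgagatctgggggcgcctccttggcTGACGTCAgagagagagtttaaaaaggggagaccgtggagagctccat
Tac1 (chr6:7554811-7555060, plus): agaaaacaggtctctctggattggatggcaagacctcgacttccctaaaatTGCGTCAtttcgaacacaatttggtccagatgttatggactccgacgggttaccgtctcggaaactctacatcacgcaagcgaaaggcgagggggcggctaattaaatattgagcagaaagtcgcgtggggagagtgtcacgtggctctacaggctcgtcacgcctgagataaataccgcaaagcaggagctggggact
Cck (chr9:121495695-121495944, minus): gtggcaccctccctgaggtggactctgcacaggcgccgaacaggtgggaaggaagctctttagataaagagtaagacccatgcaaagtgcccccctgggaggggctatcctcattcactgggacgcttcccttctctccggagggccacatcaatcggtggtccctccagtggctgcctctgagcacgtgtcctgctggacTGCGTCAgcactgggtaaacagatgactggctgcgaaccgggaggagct
Huwe1 (chrX:151803032-151803281, plus): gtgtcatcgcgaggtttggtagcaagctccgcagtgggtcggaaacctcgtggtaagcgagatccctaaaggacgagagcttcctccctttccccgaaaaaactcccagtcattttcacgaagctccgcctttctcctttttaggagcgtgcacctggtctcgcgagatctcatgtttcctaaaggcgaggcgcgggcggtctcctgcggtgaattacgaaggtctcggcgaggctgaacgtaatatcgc
The match lies 48 bases before the start in Sst, 199 in Tac1 and 49 in Cck, and the window of Huwe1 held none of the 3 motifs and 31 CG pairs. A match describes these letters and is not evidence of a bound site.

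Ranks of the 2 sets were compared gene by gene with limma on the normal score of the array rank, that is, the standard normal value of the gene's place among all genes of its array. The test called 5959 of 22180 genes (26.9%) at an adjusted p under 0.05, of which 3041 (13.7%) ranked higher and 2918 (13.2%) lower in male controls. The test reads sex and processing run together. The smallest p belonged to Xist, the RNA of the inactive X chromosome, which went from rank 157.5 in females to 19691 in males. The Y-linked genes Uty, Eif2s3y and Kdm5d followed, from 21037, 20111 and 20056 in females to 4879, 3539 and 6361 in males, matching the labelled sexes. The next 6 were 2700089I24Rik, Tssk2, Fam25c, Cmah, Ttk and Siglecg, which were all weaker than the strongest gene of other organs in both sets. Among the genes of other organs 9 of 18 were called, 4 higher and 5 lower in males, for example albumin (Alb), from 15323 to 18002.

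Of the 25 striatal signalling genes 7 were called, 1 higher and 6 lower in males, which is 28% against the 26.9% of all genes. Prkar1b ranked higher in males, by 0.19 in normal score (SE 0.03, limma adjusted p = 0.000827). Hpca fell by 0.23 (SE 0.04, adjusted p = 0.00163, limma), and Gnal, the Golf subunit, by 0.19 (SE 0.04, limma adjusted p = 0.00716). Arpp19, Prkaca, Ppp1r1a and Rgs9 ranked lower in males too, with limma adjusted p of 0.00334, 0.00822, 0.0160 and 0.0180. For all 7 the array scores of the 2 sets did not overlap, as held for 3434 of the 5959 genes called among all 22180. Each of the 7 stayed past the threshold in all 11 fits that left out 1 array. How many of all genes did so was not counted. With the replicate number as a block, Prkaca and Rgs9 did not pass (limma adjusted p = 0.0547 and 0.0693).

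The markers differed less firmly. Tac1 ranked lower in males by the same test (adjusted p = 0.0175, limma), also in all 11 of those fits, but not with male controls 1 and 6 both left out (adjusted p = 0.067). Drd1 ranked lower as well (adjusted p = 0.0401, limma), but stayed past the threshold in 3 of the 11 fits, those without female control 3 or 5 or male control 4, and lost it without any other array, with an adjusted p of up to 0.0946. Penk, Drd2 and Pde10a did not pass, with limma adjusted p of 0.336, 0.747 and 0.300. Drd5 ranked lower and Drd4 higher in males, with adjusted p of 0.0317 and 0.0415 (limma), and both lost the call without any of several arrays, in 6 and 8 of the 11 fits. The score difference of Slc17a7 was the largest of all list members and did not pass (limma adjusted p = 0.0587), since its male values spanned most of the range. It passed in 2 fits, those without male control 1 or 2.

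In the other lists, the calls were scattered. All lists together, with those above, hold 282 measured entries, with some genes in more than 1 list. Of their genes 60 distinct ones passed. The distinct genes in the lists were not counted, so no share is set against the 26.9% of all genes. Not among these entries are the ribosomal protein and small nucleolar RNA genes, of which 25 of 63 (39.7%) and 26 of 73 (35.6%) passed. Of the 60, 35 passed in each of the 11 fits that left out 1 array. Single fits of this kind called 21.2% to 26.1% of all genes, and the share of all genes passing in each of the 11 was not counted. The vasopressin receptor Avpr1a ranked higher in males, 13632 against 10720 (limma adjusted p = 0.00597), as did Avpr1b, both within the range of genes of other organs in both sets, and the neurokinin genes Tac2 and Tacr1 (adjusted p = 0.00231 and 0.0104, limma). The delta and kappa opioid receptors Oprd1 and Oprk1 ranked lower in males, and so did Cartpt, the CART peptide precursor. Oprk1 did not pass without female control 1 or 4 (limma adjusted p up to 0.0644), and Cartpt passed in only 4 of the 11 fits (up to 0.0898). Of the glutamate receptors, Grin2a, Grik5 and Grin3b ranked lower and Grik1 higher in males. Grik1 passed in all 11 fits, while Grin2a did not without female control 3 (limma adjusted p = 0.0546) or Grik5 without female control 2 or 4 (up to 0.0558). Grin3b passed in 3 fits and lay within the range of genes of other organs in both sets. Of the GABA receptors, Gabrb1 and Gabra6 ranked higher and Gabra4 lower, and of the muscarinic and cannabinoid receptors, Chrm2 ranked higher and Chrm1 and Cnr2 lower. None of these 6 passed in all 11 fits: Gabrb1 did not without female control 3 or 4 and Gabra4 without female control 1 or 3, while Chrm2 passed in 5 fits, Gabra6 in 3, and Chrm1 and Cnr2 in 2 each. In both sets Cnr2 lay within the range of genes of other organs, and Gabra6 was weaker than all of them.

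Among glial and immune genes Aif1 and P2ry12 of microglia, S100b of astrocytes, Mobp of oligodendrocytes and the lymphocyte genes Ccl5, Cd3d and Cd79b ranked higher in males, and Mbp and C1ql1 lower. With 1 array left out, P2ry12 did not pass without female control 3 or 4 and Cd79b without female control 2, 3 or 5 or male control 6, while C1ql1 passed in 2 of the 11 fits and Mbp in 1. Aif1 and the 3 lymphocyte genes ranked within the range of genes of other organs in both sets. Ak7 and Ttr of ependyma and choroid plexus, the clock genes Hlf and Nr1d2, the early genes Fosb and Homer1 and the interneuron gene Calb2 ranked lower in males. Homer1 passed in 4 of the 11 fits and Calb2 in 3, and Ak7 and Ttr lay within the range of genes of other organs in both sets. Of the mitochondrial genes CYTB, ND1, ND6 and COX3 ranked higher and COX1 lower in males. COX1 turned to 0.32 higher in males on median-centred log2 intensities (limma adjusted p = 0.000379), and COX3 did not pass without female control 2, 3, 4 or 5. Of the reference genes Pgk1 ranked higher and Hprt lower, and they passed in 5 and 3 of the 11 fits. No gene passed in the indirect pathway, medium spiny neuron transcription factor, metabotropic glutamate receptor, dopamine neuron, cortical or vascular lists. In limma 6 of their 49 genes (12.2%) had an unadjusted p under 0.05, against 39.6% of all genes tested. These lists were picked for having no call, which lowers their share in advance, so the percentages cannot be compared. In the cortical list the median difference was −0.23.

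**Figure D5:**
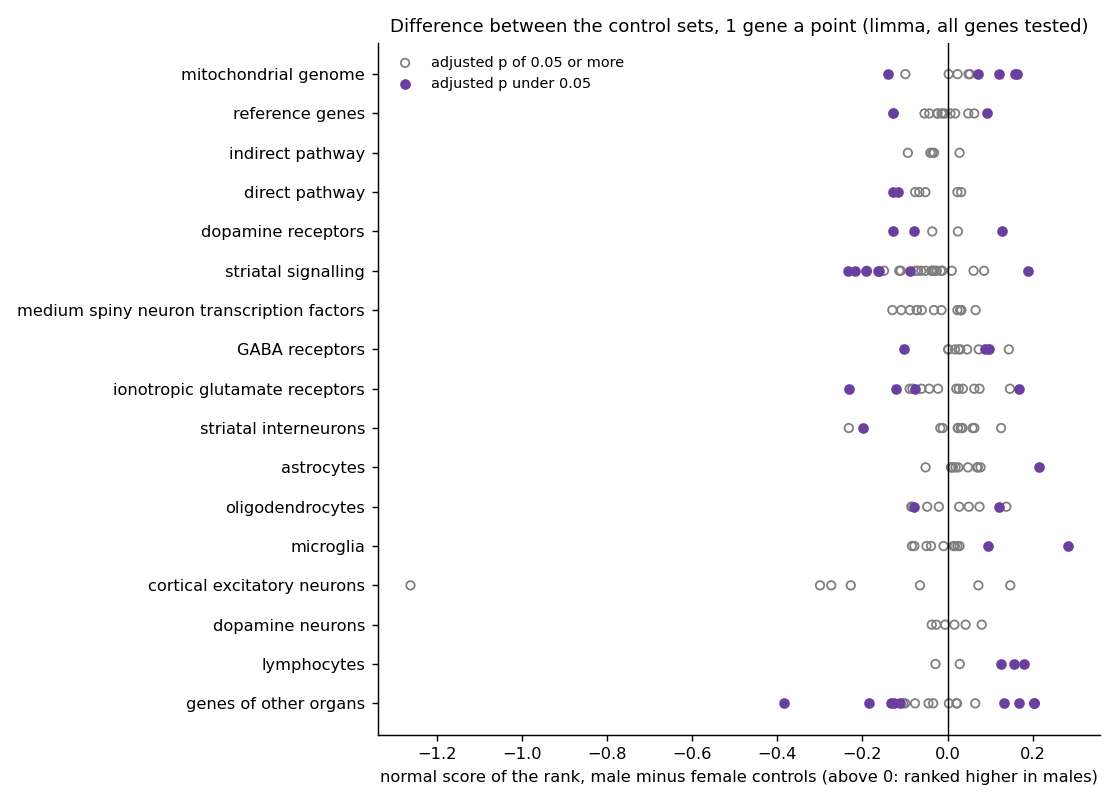
Difference in normal score of the rank, male minus female controls (horizontal axis), for each member of 17 gene lists, with filled points at a limma adjusted p under 0.05. Of the striatal signalling genes 7 of 25 are filled and 6 of these lie below 0, 9 of 18 genes of other organs are filled, and Slc17a7 lies farthest left and is open.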

How the data were processed

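Values are the log2 intensities per probe set that the authors deposited for whole-transcript arrays, made from 150 ng of total RNA per the labels' protocols, with Transcriptome Analysis Console per the submitters' processing notes. The software version and normalization were not given in the sources used here, nor was a genome build. The authors' table has 41345 probe sets; the annotation gave 1 symbol for 23521, several for 1814 and none for 16010. A gene was its probe set with the highest mean rank over both sets among those with 1 symbol, which gave 22180 genes, 1082 of them with more than 1. The gene lists hold 313 entries, of which 282 were measured. Members and lists were chosen with earlier results of these data known. Named are the 5 markers, the 20 strongest, 15 steadiest and 10 most variable genes, the 3 highest and 2 lowest of each list, all members of the dopamine receptor, pathway and striatal signalling lists, and the called members of lists with the 10 smallest p; the shared most variable genes were added after the data were seen. Rank tests used limma 3.58.1 in R 4.3.3 (two-sided, Benjamini-Hochberg over all genes, threshold 0.05), were checked on simulated data, and rest on the spread between mice. The number of arrays limits the precision. Alternatives covered the summary over probe sets, the rank statistic, filters, scaling, the replicate block and each array left out.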

Additional observations from a re-analysis of the deposited data

Results flagged for a closer look

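In 14 of the 158 groups of values tested, an array lay far from the others of its set, by the ratio of its gap to the range. Chance alone would flag about 1 in 20 independent groups of unrounded values. These groups share arrays, and some are genes picked for a low SD with values rounded to 0.01. The count of 14 therefore cannot be set against that rate. Male control 1 had the weakest median rank of the indirect pathway genes, 795.5, where the next was 489.5. The same array had the strongest median ranks of muscarinic, adenosine and cannabinoid receptors, 6284, and of metabotropic glutamate receptors, 3634. Female control 1 had the strongest median rank of oligodendrocyte genes, 2011.75, and female control 2 that of microglial genes, 6725.5. For the mitochondrial genes the median rank was 6.25 in male control 4 and 6.5 in the other male arrays. Single genes were set apart by small steps: in female control 1 Abca2 was the highest at 9.74, and Ap3d1 at 10.59 and Kpna6 at 9.07 were the lowest. Psmb7 was lowest in female control 2 at 9.17 and Gm26504 in female control 4 at 12.70. ND1 was lowest in female control 4 at 13.40 and in male control 4 at 13.61, and Rn7sk in male control 5 at 13.80.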

How the results depend on the processing

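The count of shared strongest genes stayed between 85 and 93 in all settings tried. With all 41345 probe sets ranked in place of 22180 genes, the striatal signalling median rank was 1483 in females and 1637.5 in males. Unnamed probe sets take ranks there, so these ranks lie on a longer scale than those of genes. The 3 shared steadiest genes became 6 with quantile normalization within each set, 1 over all named genes, 0 to 5 with 1 array left out, and, in alternatives chosen after seeing the data, 6 without male controls 1 and 6 and 1 without male controls 1 and 2. The count of 5959 genes with a rank difference was 2907 of 11351 tested among genes above the median rank in at least 1 set, and 4701 to 5784 with 1 array left out. With the replicate block it was 4030; same-numbered arrays deviated together with correlations of -0.14 to 0.042, so the numbers only name mice, and pairing was not used. COX1 turned from lower to 0.32 higher in males on median-centred log2 intensities, and no other named call reversed. The cause of this turn was not tested. In 233 refits of single named genes the call was lost, while 1061 refits kept both direction and call status. Of 586 gene ranks recomputed under the alternatives, 463 moved by less than the spread between mice and 123 by more.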
